A study of Mus musculus with 12 samples.

Results

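The late endosome and autophagosome fuse with the lysosome through the HOPS tethering complex and the effectors of the small GTPase Rab7, and 10 genes of this machinery were examined in HT22 cells. They were taken from the deposited tables by gene name, and the list of names was drawn up with earlier results of these data known. They comprise the 6 HOPS subunits (Vps11, Vps16, Vps18, Vps33a, Vps39 and Vps41), the 3 Rab7 effectors Plekhm1, Rilp and Fyco1, and Mon1b, which belongs to the complex that activates Rab7. All 10 were among the 25239 genes of the expression table, and 2 of the 2643 m6A peaks of the peak table lay on them. This table is much shorter than the full set of peaks that the study describes, and how its peaks were chosen is not given in the sources used here, so each count of peaks refers to this table alone.

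HT22 is an immortalized line of mouse hippocampal neurons. Cells were treated with mesaconitine (MA), a diterpenoid alkaloid of Aconitum plants, at 800 μM for 72 h, and cells without MA served as the control. Each group gave 3 input libraries and 3 libraries immunoprecipitated (IP) with an anti-m6A antibody, 12 libraries in 4 groups, all of wild type genotype. MeRIP-seq compares the RNA fragments pulled down by the antibody with the input fragments, to ask whether m6A modification accompanies MA toxicity.

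The values used were a base mean for each gene, which is a normalized count averaged over both groups (whether IP libraries entered it is not given in the sources used here), and the reads of each peak, given as 1 value per group and read here as the sum over its 3 libraries. Values of single libraries were not used here, so no spread between replicates was available, and no test of a difference between MA and control cells could be made. Intervals cover counting error only. Over all peaks, the control pools held 288659 reads in input and 267002 in IP, the MA pools held 214778 in input and 359889 in IP, and the total depth of the libraries was not analysed here. Of 10 neuronal markers, Map2, Snap25, Nefl, Nefm, Stmn2 and Gap43 were listed at 0, whereas Tubb3 and Eno2 had base means of 473 and 534, and Syp and Rbfox3 had 4.70 and 1.15. The fibroblast collagens Col1a1, Col1a2 and Col3a1 had base means of 100160, 129498 and 134804. Of the other fibroblast markers, Pdgfra had 8906, Dcn 145 and Lum 1.35, the last 2 of which were below the median gene. Of 12 astrocyte, microglia and oligodendrocyte markers, 4 were listed at 0, and the highest was Aif1 with 64.3. The part of these marker levels in the results was not tested. In bulk RNA, fewer cells of a type and less RNA per cell cannot be told apart.

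HOPS is a complex of 6 subunits that captures membranes carrying Rab7. Vps39 and Vps41 are its ends that meet Rab GTPases, Vps11, Vps16 and Vps18 form its backbone, and Vps33a is the Sec1/Munc18 protein that helps SNARE proteins to assemble. Plekhm1 links Rab7 to HOPS and to LC3 on autophagosomes. Rilp couples Rab7 vesicles to the dynein motor, and Fyco1 couples them to kinesin. Mon1 proteins act with Ccz1 as the exchange factor that loads Rab7 with GTP.

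All 6 HOPS subunits were expressed above the median gene, which had a base mean of 528 among the 16178 genes with a value above 0. Vps41 had the highest base mean of the subunits, 3075, followed by Vps16 with 2761. The base means of Vps33a, Vps39 and Vps11 lay close together at 1606, 1587 and 1502. Vps18 had the lowest, 792, at percentile 56.2 of the genes above 0, while Vps41 was at percentile 80.8. Since no spread was available, it is not known which neighbours in this order differ beyond replicate error.

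The 3 effectors differed widely in level. Fyco1 had the highest base mean of the 10 genes, 4536, at percentile 87.2, and Plekhm1 had 2224. The base mean of Rilp was only 4.93, at percentile 19.0, and it was the single gene of the 10 below the median. Its relatives Rilpl1 and Rilpl2 had base means of 978 and 1130. Mon1b had a base mean of 793, and that of its relative Mon1a was 371.

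A longer transcript yields more fragments, so levels were also divided by the length of the longest coding transcript. On this scale of base mean per kilobase, Vps41 (961) and Vps16 (873) were the highest of the 10 genes, and Fyco1, with a transcript of 7949 bases, came next with 571. Vps11, Vps33a, Plekhm1 and Vps39 followed with 425, 379, 373 and 362. Vps18 (195), Mon1b (159) and Rilp (3.31) were under the median gene, which had 256 per kilobase. Thus 7 of the 10 genes were above the median on this scale, against 9 before division by length. The order depends on the length used. Per kilobase of the union of exons, Vps16 had 741, Fyco1 512 and Vps41 457, and Plekhm1 (373) came before Vps33a (335), Vps11 (304) and Vps39 (184).

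**Figure D1:**
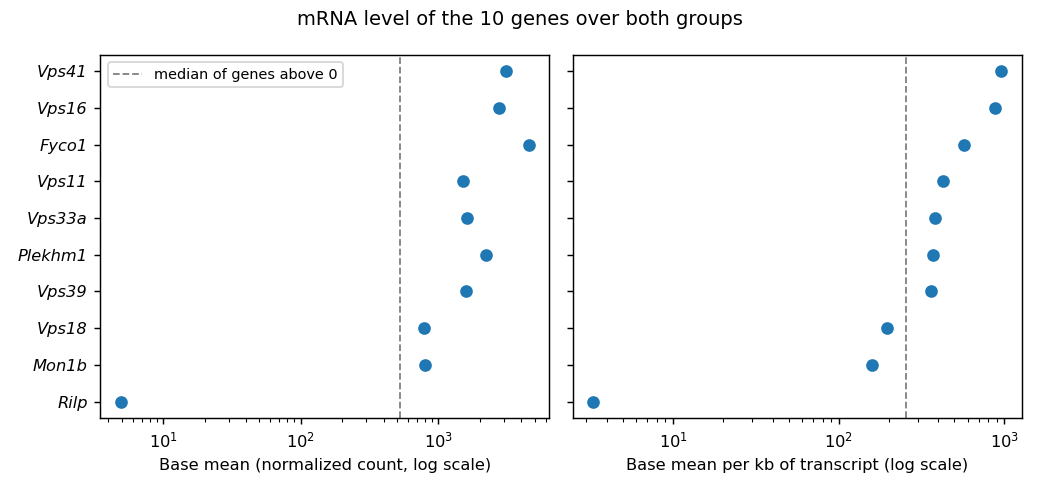
Level of the 10 genes as the base mean (left) and as the base mean per kilobase of transcript (right), both on log axes, with 1 point per gene over both groups and no error available. Vps41 (961) and Vps16 (873) lead per kilobase of the longest coding transcript, and Rilp (3.31) lies far left of the dashed median of all genes above 0.

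The HOPS subunits were set beside 46 partner genes of the same pathway. Among the 6 subunits the median base mean per kilobase was 402. CORVET, the tether of early endosomes, shares Vps11, Vps16, Vps18 and Vps33a with HOPS, and its own subunits Vps8 and Tgfbrap1 had 402 and 235 per kilobase. Vps33b and Vipas39, which form the CHEVI pair, had 229 and 346. Of the 12 genes for SNAREs and their fusion factors, 11 had a transcript length (Vamp7 had none), and their median was 910 per kilobase, with Vti1b at 3267. The 17 other tethers and adaptors of the late endosome had a median of 625. The 13 genes of the Rab7 and Rab5 cycle had a median of 1714, and Rab7 itself was at 5341, with a base mean of 11531. These values divide by the longest coding transcript, and the distances between the lists depend on that choice. Ccz1, for example, had 1827 on this scale and 721 per kilobase of the union of exons. The 3 partners with the highest base means were Gdi2 (19109), Rab7 and Rab5c (7092), and the 3 with the lowest were Borcs5 (214), Anxa8 (73.2) and Rubcnl (0.968).

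**Figure D2:**
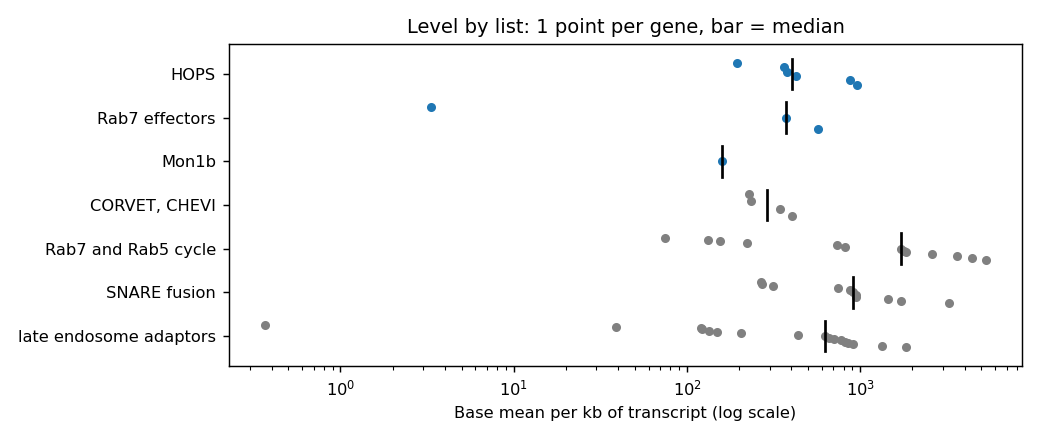
Base mean per kilobase of transcript (log axis) for the 10 genes (blue) and 45 partner genes with a length (grey), with 1 point per gene and a bar at the median of each list. The medians are 402 for HOPS, 910 for the SNARE fusion genes and 1714 for the Rab7 and Rab5 cycle, by the length of the longest coding transcript.

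On mm10, with gene models from GENCODE, 3 of the HOPS genes lie on chromosome 2. These are Vps16 at chr2:130424339-130444269 and Vps18 at chr2:119288740-119298453 on the plus strand, and Vps39 at chr2:120316461-120353137 on the minus strand. Vps11 is at chr9:44347749-44361670 and Vps33a at chr5:123528659-123573038, both on the minus strand, and Vps41 is at chr13:18717286-18866811 on the plus strand. Fyco1 is at chr9:123789500-123851899 and Plekhm1 at chr11:103364275-103412687, both on the minus strand. Rilp is at chr11:75510094-75513168 and Mon1b at chr8:113635587-113645179, both on the plus strand. The coding parts range from 369 codons in Rilp to 1437 in Fyco1, without the stop, and those of the HOPS subunits from 598 in Vps33a to 973 in Vps18.

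The transcripts of the 10 genes differed in how much of them is untranslated. The 3′UTR of Mon1b has 3049 bases behind a coding part of 1662, and that of Vps33a has 2381 behind 1797. In Vps16 and Vps41 the 3′UTR is short, with 611 bases in each, behind coding parts of 2520 and 2562 bases. The m6A consensus RRACH (R is A or G, H is A, C or T) occurred between 11.6 times per kilobase in Vps18 and 17.2 times in Fyco1, and the median transcript of all genes above 0 held 14.7. Of stretches of 50 bases, none in 8 of the transcripts occurred in another gene. In Fyco1 7 of 158 stretches were shared with the overlapping model AC165425.1, and in Mon1b 1 of 99 was shared with Syce1l. Exons of Vps16 and Plekhm1 overlap those of Pced1a and Arhgap27os1 on the other strand, the libraries were stranded, and whether the counting used strand is not given in the sources used here. In promoter windows from 250 bases before to 50 bases after the start, from RefSeq on GRCm38.p6, which were found for 8 of the 10 genes, the palindrome CACGTG was present in Vps16 and Vps33a. That is 2 of the 10 windows of these genes, against 9.30% of the 15198 such windows of genes with a base mean above 0. The difference was not tested.

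In the peak table Vps16 and Vps41 held a peak, 2 of the 10 genes, against 13.4% of all genes with a base mean above 0. In the range of base means from Mon1b and Vps18 up to Fyco1, which takes in 9 of the 10 genes, 20.05% of 5013 genes held a peak. For the other 8 genes no peak was listed, which does not show that they lack m6A. Each peak was listed once with the reads of all 4 pools, and in which group it was detected was not analysed here.

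Both peaks lay wholly in coding sequence, far from the stop codon. The Vps16 peak spans chr2:130440958-130441188 of mm10 on the plus strand, from exon 15 to exon 16 of 24, and covers 75 exonic bases, with the exon junction after base 51. Its centre lies 1057 bases before the end of the coding part. The Vps41 peak is at chr13:18811651-18811700 on the plus strand, 50 bases within exon 9 of 29, with its centre 1886 bases before the end of the coding part. The exonic sequences of both are shown 5′ to 3′ with RRACH in capitals, because they are the only stretches of these genes in the peak list.
Vps16 peak: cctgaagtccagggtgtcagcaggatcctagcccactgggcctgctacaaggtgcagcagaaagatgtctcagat
Vps41 peak: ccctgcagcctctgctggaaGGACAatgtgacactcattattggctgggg

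The Vps41 peak held 1 match to RRACH, GGACA from base 21, searched on the transcribed strand. Of windows of 50 bases along 11535 expressed coding transcripts, 50.2% held RRACH. The exonic part of the Vps16 peak held none, whereas 65.4% of windows of 75 bases did. Neither peak held GGACT, which was present in 4.89% of windows of 50 bases and 7.43% of windows of 75. The absence of these letters from a window of this size says only that they do not occur there.

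**Figure D3:**
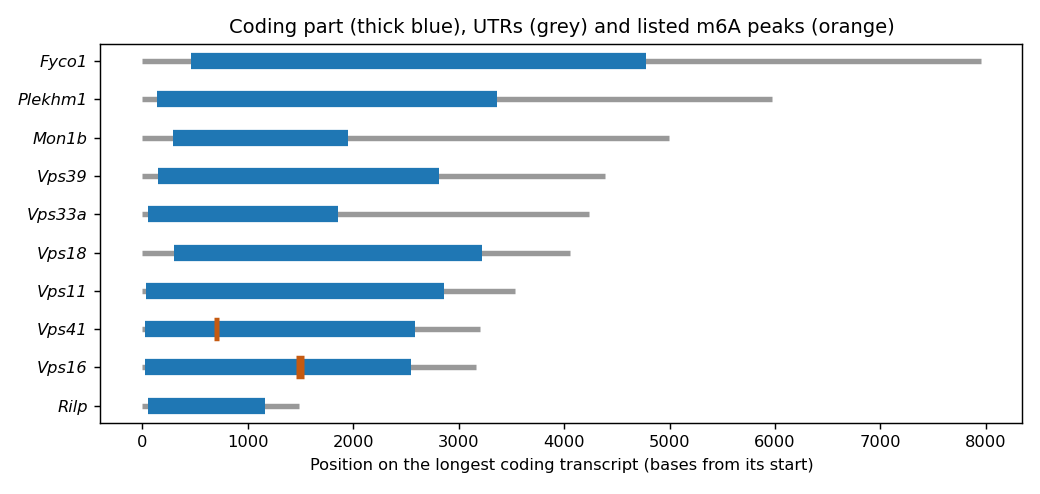
Longest coding transcript of each of the 10 genes in bases from its start, with the coding part in thick blue, the UTRs in grey and the listed m6A peaks in orange. The peaks of Vps16 (bases 1456 to 1530) and Vps41 (bases 678 to 727) both lie inside the coding part.

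In the Vps16 peak, control cells gave 49 input and 48 IP reads, and MA cells gave 23 input and 55 IP reads. IP reads thus made up 49.5% of the reads in control cells (exact Clopper-Pearson 95% interval 39.2% to 59.8%) and 70.5% in MA cells (59.1% to 80.3%). These intervals do not take the shift of the median peak, given below, into account. The input pool was smaller in MA cells, 0.469 times that of control cells, and the IP pool was 1.15 times as large.

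In the Vps41 peak, control cells gave 34 input and 30 IP reads, and MA cells gave 18 input and 50 IP reads. The IP share was 46.9% in control cells (exact 95% interval 34.3% to 59.8%) and 73.5% in MA cells (61.4% to 83.5%). Neither interval takes the shift of all listed peaks into account. The median IP share over all listed peaks also rose, from 48.9% in control to 64.8% in MA cells. The MA pool was 0.529 times the control pool for input and 1.67 times for IP.

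**Figure D4:**
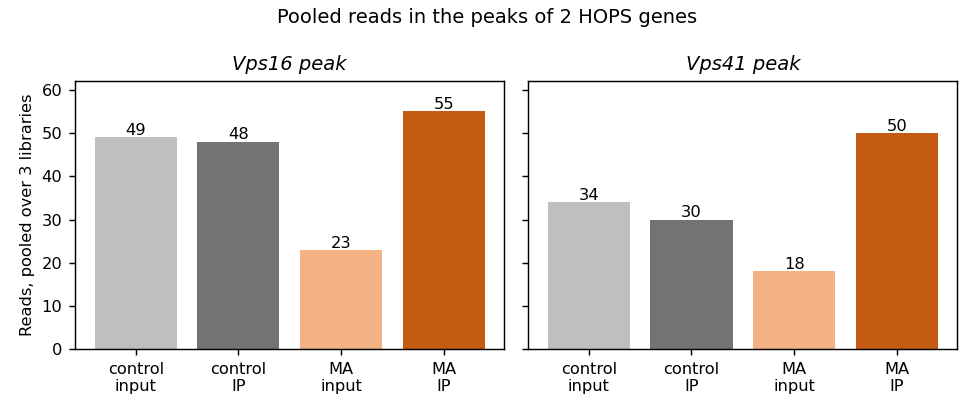
Reads in the peaks of Vps16 and Vps41, 1 bar for each group of libraries and each bar pooled over 3 libraries, so that no error bar can be drawn. In both peaks the MA input is the smallest pool (23 and 18 reads) and the MA IP is the largest (55 and 50 reads).

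The 2643 listed peaks shifted in the same direction at the median. The median IP share was 48.9% in control and 64.8% in MA cells, and the ratio of IP to input was higher in the MA pools for 83.4% of the 2643 peaks. The median log2 change of this ratio was 0.90. It moves with the depth of the 4 pools, and depth and methylation cannot be told apart here. The changes of the 2 HOPS peaks were therefore taken relative to this median peak.

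Relative to the median peak, the IP to input ratio of Vps41 was 1.65-fold higher in MA than in control cells, a log2 change of 0.72 (exact conditional 95% interval -0.39 to 1.90). That of Vps16 was 1.29-fold higher, a log2 change of 0.37 (exact 95% interval -0.59 to 1.37). Both intervals include 0, so a difference from the median peak was not detectable at this depth. A change of more than 1.5-fold was reached by 1 of the 2 peaks, in the direction of a higher ratio in MA cells, and by 27.6% of all peaks in that direction and 25.7% in the other. With a pseudocount of 5 reads the change of Vps41 was below 1.5-fold, so that 0 of the 2 peaks passed. The changes of Vps41 and Vps16 lay at percentiles 76.8 and 64.5 of all peaks. In control cells their IP to input ratios were at percentiles 40.7 and 52.5, and in MA cells at 81.2 and 72.4. Without centring on the median peak, the log2 change of Vps41 was 1.63 (exact 95% interval 0.52 to 2.80). That of Vps16 was 1.27 (0.32 to 2.27). On this uncentred scale 83.4% of all peaks were above 0, and depth and methylation cannot be told apart.

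Read separately, input and IP reads placed the peaks differently. The median peak had 0.724 times as many input reads in the MA pool as in the control pool, and 1.38 times as many IP reads. For input, Vps16 and Vps41 were at percentiles 13.6 and 20.7 of this ratio. For IP, they were at percentiles 31.1 and 67.3. Counts of this size carry a wide counting error, and the peaks were at percentiles 38.0 and 26.5 by total reads.

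Of the 46 partner genes, 5 held 6 peaks. Vps33b, the relative of Vps33a, had a log2 change of 0.56 relative to the median peak (exact 95% interval -0.65 to 1.83). Borcs6, a subunit of the BORC complex that recruits the GTPase Arl8 to lysosomes, had 0.01 (exact 95% interval -0.36 to 0.38), and its peak also overlaps the model 9330160F10Rik. Plekhm2, which binds Arl8 and kinesin, had 2.74 (1.60 to 4.03), and Tecpr1, an autophagosome tether, had 1.47 (0.33 to 2.73). The change of Plekhm2 rests on 14 control IP reads, and its control ratio was at percentile 0.23 of all peaks. That of Tecpr1 rests on 14 MA input reads. Neither peak is kept when at least 20 reads in each pool are required. With a pseudocount of 5 reads both changes were smaller but stayed above 0. Arl8a held the other 2 peaks, with changes of -1.26 (-2.07 to -0.46) and 2.55 (0.75 to 4.93). The interval of Plekhm2 overlaps that of Vps41 but not that of Vps16. The interval of the lower Arl8a peak overlaps that of Vps16 but not that of Vps41, and the intervals of the other partner peaks overlap those of both. Without centring on the median peak, the change of the lower Arl8a peak was -0.36 (exact 95% interval -1.17 to 0.44) and that of Borcs6 was 0.91 (0.54 to 1.28). How many of all listed peaks have an interval that excludes 0 was not analysed here, so these partner intervals have no background to be set against.

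**Figure D5:**
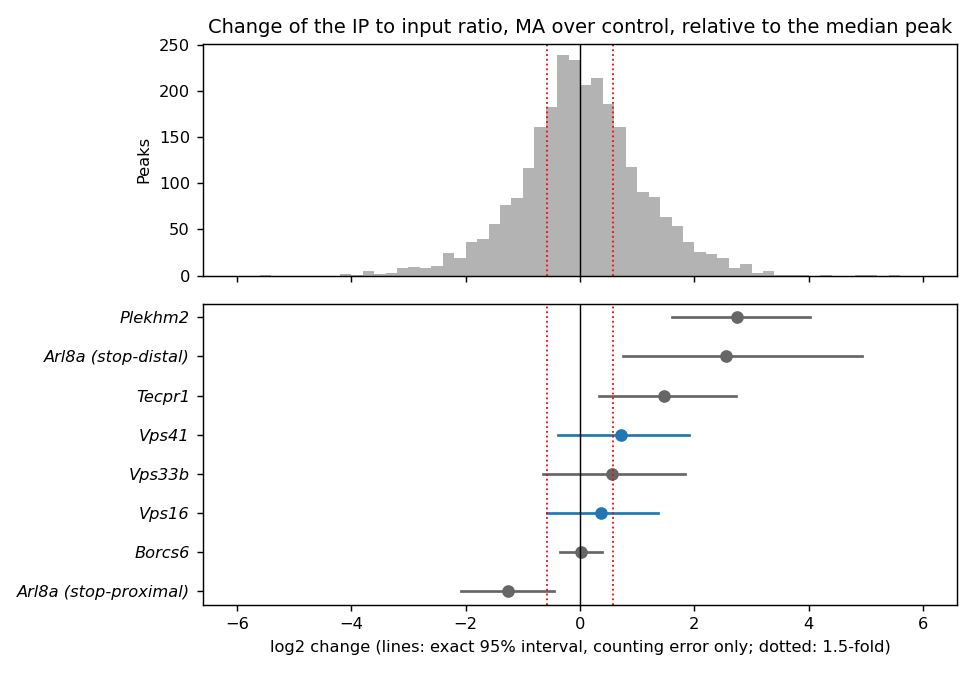
Log2 change of the IP to input ratio from control to MA, relative to the median peak, for all 2643 peaks (top, number of peaks per bin) and for the 2 HOPS peaks (blue) and 6 partner peaks (grey) with exact 95% intervals for counting error (bottom). The intervals of Vps41 (-0.39 to 1.90) and Vps16 (-0.59 to 1.37) cross 0, and the dotted lines mark 1.5-fold.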

How the data were processed

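MeRIP-seq of HT22 cells was available as 2 tables. Per the study's methods, reads were processed by fastp and mapped to mm10 by HISAT2, and genes were quantified by StringTie and compared by DESeq2. The authors' base mean, a signal per gene, is as DESeq2 defines it a mean of counts scaled by size factors. The authors called peaks with exomePeak2 and deposited read counts for each peak, whole numbers with 1 value per group of libraries. They were read as sums over replicates, which the sources used here do not state. The remaining columns hold the authors' own fold changes, standard errors, test statistics and p-values for MA against control, and were not used. The number of columns of single libraries left out is 0. The design had planned a count model in case single libraries were given, which did not apply.

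With Python 3.11.15, scipy 1.17.1 and pysam 0.24.0, percentiles were taken among genes with a base mean above 0, and lengths from the longest coding transcript of GENCODE M21 on GRCm38, the assembly of mm10. No peak lay past a chromosome end. The log2 change of each peak is that of (MA IP / MA input) over (control IP / control input), with a pseudocount of 0.5 reads, centred on the median of all peaks. Its interval is the exact conditional interval of the odds ratio. A change of more than 1.5-fold was counted. The peak step was tested on simulated reads. These held larger changes than those of Vps16 and Vps41 and no spread between replicates, so changes of their size were not covered. Every one of the 10 genes is described, and of the partners those with a peak and the 3 highest and 3 lowest. Rilpl1, Rilpl2, Mon1a, Ccz1, Vps8, Tgfbrap1, Vipas39 and Vti1b fall outside this rule and were chosen after their values were seen. The members and lists were chosen with earlier results of these data known.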

Additional observations from a re-analysis of the deposited data

How the results depend on the processing

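The count of HOPS peaks past the fold threshold rests on 1 peak and moved under most alternatives. It was 2 at 1.2-fold and 2 without scaling, and 0 at 2-fold, with at least 20 reads in each pool (which leaves out Vps41) and with a pseudocount of 5 reads. Division of each pool by its total left it at 1. The count over all 2643 peaks was 1410, of which 730 were higher and 680 lower. At 1.2-fold it was 2057, with a pseudocount of 5 reads 1305, and with each pool divided by its total 1406. It fell to 823 at 2-fold and to 885 of 1925 peaks with at least 20 reads in each pool. Without scaling, 1691 peaks were higher and 204 lower. The log2 changes of Vps16 and Vps41 stayed above 0 under each alternative that kept the peak. They ranged from 0.29 to 1.27 and from 0.58 to 1.63. The upper ends come from the setting without scaling, in which 83.4% of all peaks were above 0. Every alternative reuses the same reads, so the shared sign is no separate test of direction. Relative to the median peak, the exact intervals of Vps16 (-0.59 to 1.37) and Vps41 (-0.39 to 1.90) include 0. Of the 6 partner peaks, 2 moved beyond their counting intervals without scaling, Borcs6 from 0.01 to 0.91 and the lower Arl8a peak from -1.26 to -0.36, and none changed sign. The median percentile of the 10 genes among base means was 68.6. It was 59.3 among genes with a base mean of at least 10, which leaves out Rilp, 58.3 per kilobase of the longest coding transcript and 63.0 per kilobase of the union of exons. No paired analysis was possible because replicates are pooled in the values used, and for the same reason no replicate could be left out.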

Other observations

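Arl8a encodes a lysosomal GTPase whose partners include HOPS and Plekhm2. It held 2 peaks of 50 bases in its 3′UTR, 50 bases apart, whose changes differed. The peak nearer the stop codon, at chr1:135155342-135155391 of mm10, gave 44 input and 71 IP reads in control cells and 51 input and 64 IP reads in MA cells, a log2 change of -1.26 relative to the median peak (exact 95% interval -2.07 to -0.46). Without centring on the median peak this change was -0.36 (exact 95% interval -1.17 to 0.44), an interval that includes 0. The other, at chr1:135155442-135155491, gave 20 input and 13 IP reads in control cells and 4 input and 32 IP reads in MA cells, a log2 change of 2.55 (exact 95% interval 0.75 to 4.93), or 3.46 (1.65 to 5.83) without centring. With a pseudocount of 5 reads the changes of the nearer and the farther peak were -1.17 and 1.68. The setting with at least 20 reads in each pool leaves out the farther peak. The intervals of the 2 peaks do not overlap on either scale, but they cover counting error only, and the change of the farther peak rests on 4 MA input reads. Per the study's methods, the RNA fragments were longer than each peak and than the gap between the peaks. A fragment can therefore reach both peaks, so their counts may not be independent. Both peaks were noticed after the values were seen.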
